A study of Mus musculus with 8 samples.

Results

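Mouse embryonic stem cells lacking Ezh2 were compared with embryonic stem cells lacking Eed by gene expression arrays. Both genes encode core subunits of Polycomb repressive complex 2 (PRC2), so the comparison asks how far the expression profile depends on which subunit was removed. The 2 arrays labelled Ezh2-/- were set against the 2 arrays labelled Eed-/-, which are 4 of the 8 arrays of the series, and all 22626 probe sets other than the manufacturer's controls were tested. The arrays were chosen by their labels and no measured value entered the choice. The other 4 arrays, 2 labelled wild-type and 2 labelled Jarid2-/-, contributed to the estimate of spread, and their levels are given beside the comparison where they help to place a gene. All 4 genotypes carry the strain label cj7, a mouse embryonic stem cell line widely used for gene targeting, and all were grown in the same medium, which held fetal calf serum at 15% and LIF, the cytokine that keeps such cells undifferentiated, at 1000 U/ml. No treatment was applied. Total RNA was extracted with Trizol, copied into biotin-labelled cRNA and hybridized to Affymetrix 3' arrays. The labels do not say how the mutant lines were made, how many clones stand behind each genotype, or whether a group's 2 arrays represent different cultures. Genotype and line therefore coincide and cannot be told apart, and the p-values measure only the spread between these arrays, which may be technical.

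PRC2 methylates histone H3 at genes that the cell keeps silent, among them the Hox clusters and many other regulators of development. EZH2 is its usual methyltransferase subunit, and the related enzyme EZH1 can take its place in part of the complex's work. EED binds methylated histone H3 and is needed by complexes built on either enzyme, so loss of Eed is known to remove the mark more completely than loss of Ezh2 in mouse embryonic stem cells. PRC1 is the second Polycomb complex, which ubiquitinates histone H2A and can bind the mark that PRC2 leaves.

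Signals are linear intensities as deposited. Array medians were 322.9 to 328.7 in the Ezh2-/- arrays and 342.8 to 351.5 in the Eed-/- arrays, and 3 negative control probe sets read 23.76 to 147.91, so a signal in that range is not separable from background. Replicate arrays correlated across probe sets with r = 0.9975 in Ezh2-/- and 0.9956 in Eed-/-, as a description over probe sets that are not independent. The 2 groups were not equally tight: of genes above the median signal, 1 of 6715 differed by 2-fold or more between the Ezh2-/- replicates and 19 of 6938 between the Eed-/- replicates, all 19 higher in replicate 2. Hybridization spike-ins, which are added in equal amounts to each sample, were brighter in Ezh2-/- (median log2 difference 0.29 over 18 probe sets), 18S ribosomal RNA probe sets were dimmer (median -0.58 over 3), and the Actb and Gapdh probe sets differed by a median of -0.03 and -0.01. The 7 stem cell markers Pou5f1, Nanog, Sox2, Zfp42, Esrrb, Dppa5a and Tdgf1 were all far above background, at 3714 to 36398 in Ezh2-/- and 4585 to 36632 in Eed-/-.

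The deleted genes were read first. Ezh2 signal (chromosome 6, 1 probe set) was 650 and 743 in the Ezh2-/- arrays, against 4972 and 5049 in the Eed-/- arrays. The groups were far apart, with a log2 difference of -2.82 (SE 0.09, adjusted p = 2.9e-07, limma), a 7.07-fold lower signal in Ezh2-/-. Eed signal (chromosome 7) was 12213 and 12955 in the Ezh2-/- arrays, against 3583 and 3638 in the Eed-/- arrays, a log2 difference of 1.8 (SE 0.07, adjusted p = 1e-06). Both genes thus read lowest in the arrays labelled for their loss, although neither bright probe set reached background there, and since the deleted parts are not described in the labels, a probe set outside them would check nothing. Wild-type arrays read 4599 and 4997 for Ezh2 and 10875 and 9665 for Eed, so each mutant kept the other subunit's transcript near or above the wild-type level.

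The remaining Polycomb genes differed less. Of 14 measured PRC2 genes, 2 were called higher and 3 lower, both counts including the deleted genes themselves. These are 14.3% and 21.4%, against 5.87% and 12.2% of all genes. Without Ezh2-/- replicate 1 there was 1 in each direction, and after equal array medians 2 in each. Suz12, the core subunit that holds the complex together, read 8164 and 7943 in Ezh2-/- and 8615 and 9208 in Eed-/-, and did not pass the threshold (log2 -0.15, SE 0.05, adjusted p = 0.1). Mtf2, an accessory subunit that binds DNA rich in CG dinucleotides, read 10070 and 10528 in Ezh2-/- against 12390 and 13099 in Eed-/- (log2 -0.31, adjusted p = 0.0042), and leaving out Ezh2-/- replicate 1 ended that call. Among 15 PRC1 genes, 1 was called higher and 5 lower, and the lower count fell to 2 without either Ezh2-/- array or without Eed-/- replicate 2. As deposited, 6.67% of the PRC1 genes were higher and 33.3% lower, against 5.87% and 12.2% of all genes. Bmi1, a PRC1 subunit that restrains the Ink4a cell cycle inhibitors, read 553 and 552 in Ezh2-/- against 1655 and 1638 in Eed-/-, a log2 difference of -1.55 (SE 0.14, adjusted p = 0.00014). Wild-type arrays stood at 482 and 366, beside Ezh2-/-. Yaf2, a subunit of PRC1 variants, read 336 and 349 in Ezh2-/- against 841 and 986 in Eed-/- (log2 -1.37, SE 0.15, adjusted p = 0.00044), and here wild-type arrays, at 902 and 983, stood beside Eed-/-.

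Across the array, the difference between the mutants was tilted towards lower signals in Ezh2-/-. Of 22626 probe sets, 3798 were called at an adjusted p under 0.05 in limma, which is 16.8%, with 1285 higher in Ezh2-/- (5.68%) and 2513 lower (11.1%). At 2-fold or more, 139 were higher (0.614%) and 610 lower (2.7%). Taking the brightest probe set of each of 12393 genes, 728 were called higher (5.87%) and 1513 lower (12.2%), and 79 (0.637%) and 361 (2.91%) of these changed 2-fold or more. The median log2 difference over all genes was 0.008, so the tilt lay in the called genes rather than in the bulk of the array. The split of calls depends on how the arrays are scaled: 33.8% of called probe sets were higher as deposited, 45.4% after quantile normalization and 55.0% after setting all array medians equal. The number of calls also depends on single arrays. It was 1590 and 1373 without Ezh2-/- replicate 1 or 2, and 2756 and 1632 without Eed-/- replicate 1 or 2, where the lone array left in a group is assumed to vary like the other groups. Wild-type arrays were read beside the large differences. Among the 79 genes higher by 2-fold or more, the wild-type mean lay nearer to Eed-/- for 61 (77.2%), and among the 361 lower genes for 255 (70.6%), as a description that carries no test.

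**Figure D1:**
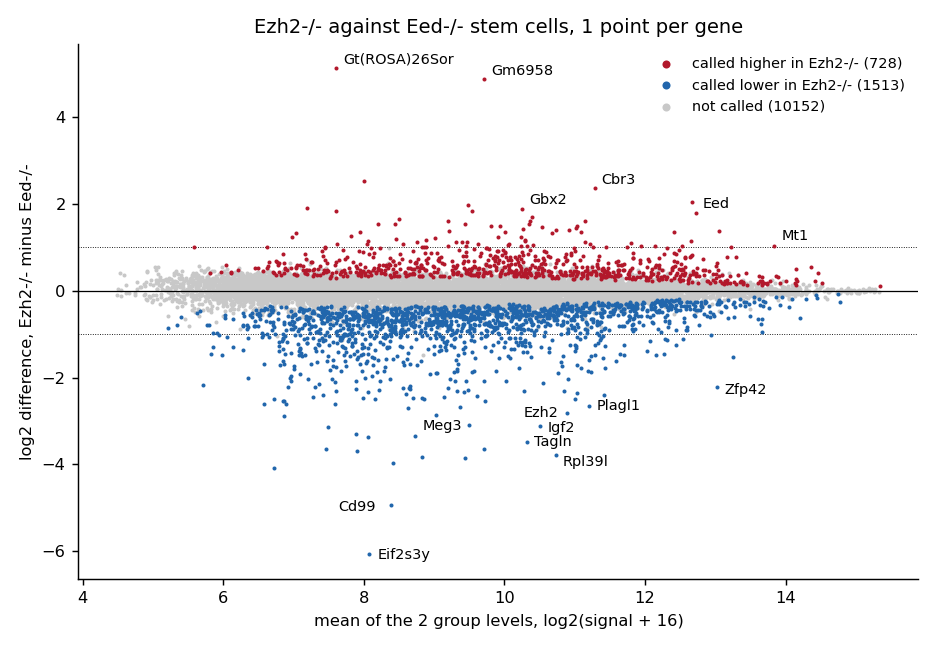
Each point is 1 of 12393 genes, with the mean of the Ezh2-/- and Eed-/- levels on the horizontal axis and their log2 difference on the vertical axis; dotted lines mark 2-fold. The 361 genes called lower by 2-fold or more outnumber the 79 called higher, and differences of genes at background depend on the pseudocount of 16.

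The series is concerned with the imprinted Dlk1-Dio3 region of chromosome 12, whose maternal copy makes the long noncoding RNAs Meg3 (also called Gtl2) and Rian. At the brightest of its probe sets, Meg3 read 125 and 110 in the Ezh2-/- arrays, against 1475 and 1202 in the Eed-/- arrays. Both Ezh2-/- arrays lay within the negative controls and both Eed-/- arrays well above them, so the Ezh2-/- signal was at least 9.05-fold lower (adjusted p = 1.9e-06). Such bounds, here and below, set the brighter group against the highest negative control, 147.91, in place of a signal that cannot be told from background. The other group also stood well below wild type, where Meg3 read 7063 and 8553, so the mutants differed in how much transcript remained. All 5 Meg3 probe sets were lower in Ezh2-/- and 4 passed the threshold, while the dimmest, within background in both groups, did not. Rian, which hosts small nucleolar RNAs, gave 54.4 and 42.9 in Ezh2-/- against 203 and 181 in Eed-/-, at least 1.3-fold lower (adjusted p = 3.7e-05), and its 3 probe sets all passed. Wild-type arrays read 1036 and 1080 for Rian. Of 10 measured genes of the region and its flanks, 4 were called lower (40.0%, against 12.2% of all genes) and none higher. The other two were Dlk1, a paternally expressed Notch-like ligand, at 120 and 103 in Ezh2-/- against 176 and 159 in Eed-/-, and the flanking motor protein gene Dync1h1, at 3247 and 2970 against 4013 and 4240. The Dlk1 call ended without Ezh2-/- replicate 2 or either Eed-/- array, and the Dync1h1 call without any one of the 4 arrays. The Meg3 start region is shown because it is the transcript with the widest gap between the mutants in the region, with CG dinucleotides, the sites of DNA methylation, in capitals. The window runs from 250 bases before to 50 after the RefSeq start, at chr12:109540746-109541045 on the plus strand of GRCm38.p6, and holds 13 CG dinucleotides against a median of 19 over the 9887 measured genes with such a window.
Meg3: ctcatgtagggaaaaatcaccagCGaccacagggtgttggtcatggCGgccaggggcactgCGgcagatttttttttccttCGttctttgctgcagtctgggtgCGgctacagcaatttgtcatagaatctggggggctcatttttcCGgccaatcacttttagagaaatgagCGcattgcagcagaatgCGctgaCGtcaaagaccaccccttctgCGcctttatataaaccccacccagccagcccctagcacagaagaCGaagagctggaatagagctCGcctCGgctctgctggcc

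The Hox genes, which specify position along the body axis and are textbook PRC2 targets, all pointed one way where they were called. Of 31 measured Hox genes, 10 were called lower in Ezh2-/- (32.3%, against 12.2% of all genes), 9 of them by 2-fold or more. None was called higher. The list's median log2 difference was -0.29, against 0.008 over all genes, and 14 members lay within the negative controls in both groups. The count was 9 without any one of the 4 arrays compared, and 4 when probe sets with a mean signal under 100 were left out. Hoxa10 read 32 and 30.3 in Ezh2-/- against 203 and 358 in Eed-/-, at least 1.9-fold lower (adjusted p = 0.00014). Hoxd9 read 84.1 and 68.4 against 308 and 463, at least 2.6-fold lower (adjusted p = 9.9e-05). For both genes the Ezh2-/- arrays were at background and the Eed-/- arrays above it. Hoxd8 followed with 22.8 and 33.9 in Ezh2-/- against 192 and 279 in Eed-/-, at least 1.59-fold lower (adjusted p = 5.7e-05). Hoxa11 read 47.2 and 41.7 against 178 and 292, also at least 1.59-fold lower (adjusted p = 0.00028), and Hoxc13 read 70.1 and 78.3 against 229 and 310, at least 1.82-fold lower (adjusted p = 0.00051). These 5 genes come from the A, C and D clusters and mostly from their posterior ends. Hoxd10 and Hoxc4 were lower by at least 1.39-fold and 1.62-fold, with Ezh2-/- at background again. Hoxc8 was at 29.7 and 18.7 in Ezh2-/- against 110 and 189 in Eed-/-, where 1 of the Eed-/- arrays was within the controls as well. For Hoxd1 and Hoxb2, named after their values were seen, all 4 arrays lay within the controls, at 26.2 to 132, so their calls rest on signals that cannot be told from background, and the Hoxb2 call ended without any one of the 4 arrays. Wild-type arrays were nearer to Ezh2-/- for all 10 called genes. The start regions of Hoxa10 and Hoxd9 are shown as examples from separate clusters, with CG dinucleotides in capitals: Hoxa10 lies at chr6:52234890-52235189 on the minus strand (21 CG) and Hoxd9 at chr2:74697513-74697812 on the plus strand (20 CG).
Hoxa10: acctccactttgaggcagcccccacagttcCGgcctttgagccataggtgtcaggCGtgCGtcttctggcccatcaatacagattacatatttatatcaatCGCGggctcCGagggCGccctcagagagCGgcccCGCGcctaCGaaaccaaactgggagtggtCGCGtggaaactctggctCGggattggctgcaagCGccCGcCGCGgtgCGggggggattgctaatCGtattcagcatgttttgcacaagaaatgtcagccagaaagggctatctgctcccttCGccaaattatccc
Hoxd9: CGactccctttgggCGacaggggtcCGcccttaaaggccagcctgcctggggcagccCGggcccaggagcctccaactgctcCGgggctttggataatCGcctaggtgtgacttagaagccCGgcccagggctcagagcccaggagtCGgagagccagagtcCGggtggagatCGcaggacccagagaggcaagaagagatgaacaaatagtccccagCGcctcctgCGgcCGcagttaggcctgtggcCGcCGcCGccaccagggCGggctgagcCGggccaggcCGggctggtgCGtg

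**Figure D2:**
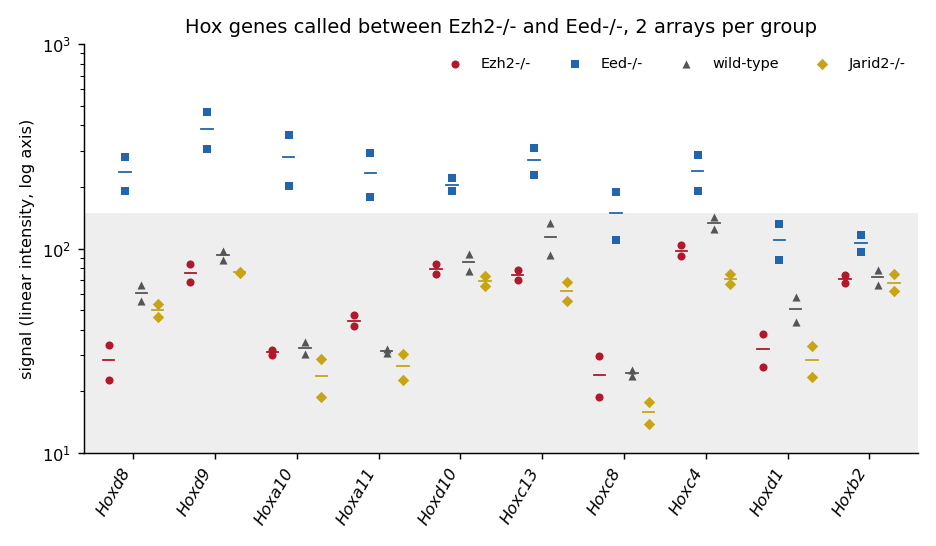
Signal of the 10 called Hox genes in each array on a log axis, with 2 arrays per group and a bar at each group's mean; the grey band ends at the highest negative control, 147.91. Ezh2-/-, wild-type and Jarid2-/- arrays lie in the band for all 10 genes, while Eed-/- arrays rise above it for 7 genes with both arrays and for Hoxc8 with 1 array.

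Developmental transcription factors outside the Hox clusters were called about as often as genes in general. Among 167 measured, 25 were called lower (15.0%, against 12.2% of all genes) and 8 higher (4.79%, against 5.87%) in Ezh2-/-, with a median of -0.01, and 65 lay within background in both groups. The lower count was 19 and 14 without Ezh2-/- replicate 1 or 2, and 20 and 18 without Eed-/- replicate 1 or 2, where the higher count was 4, 3, 8 and 4 in the same order. Foxd1, a forkhead factor of kidney stroma and retina, read 86.8 and 92 in Ezh2-/- against 333 and 349 in Eed-/-, at least 2.3-fold lower (adjusted p = 1.1e-05). Lhx2, a LIM homeobox factor of forebrain and eye, read 57.6 and 48.4 against 220 and 228, at least 1.51-fold lower (adjusted p = 5.4e-05). Wild-type arrays were at background for both genes, as were the Ezh2-/- arrays. Zic1, a zinc finger factor of the dorsal neural tube, read 220 and 169 in Ezh2-/- and 560 and 599 in Eed-/- (log2 -1.51, SE 0.16, adjusted p = 0.00032), and Gata2, a regulator of blood progenitors, 228 and 207 against 453 and 662 (log2 -1.27, SE 0.16, adjusted p = 0.00079). Olig1, a factor of oligodendrocyte precursors, was bright in both mutants: 1633 and 1734 in Ezh2-/- against 3807 and 3998 in Eed-/- (log2 -1.21, SE 0.19, adjusted p = 0.0032), where wild-type arrays read 57.7 and 100. Of the 25 lower genes, the wild-type mean lay nearer to Ezh2-/- for 19. The opposite direction was led by Gbx2, a homeobox factor that also acts in the stem cell network, with 2063 and 2594 in Ezh2-/- against 582 and 647 in Eed-/- (log2 1.89, SE 0.3, adjusted p = 0.0029). Tcf15, a basic helix-loop-helix factor of early mesoderm and primed stem cells, read 4805 and 4928 against 2882 and 2488 (log2 0.86, SE 0.12, adjusted p = 0.0014). The Lhx2 start region, at chr2:38339031-38339330 on the plus strand, is shown as the CG-rich extreme among the printed windows, with 34 CG dinucleotides in capitals.
Lhx2: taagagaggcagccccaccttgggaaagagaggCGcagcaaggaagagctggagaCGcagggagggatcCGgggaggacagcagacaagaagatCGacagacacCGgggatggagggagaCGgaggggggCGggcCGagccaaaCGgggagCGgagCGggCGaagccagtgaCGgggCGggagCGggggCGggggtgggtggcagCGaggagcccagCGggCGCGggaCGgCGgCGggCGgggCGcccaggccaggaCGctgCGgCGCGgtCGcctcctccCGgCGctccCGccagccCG

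Among genes of the stem cell network, the core factors Pou5f1 and Sox2 were close, Nanog was called lower in Ezh2-/-, and several accessory genes differed more. Pou5f1, which encodes Oct4, read 17293 and 17243 in Ezh2-/- against 15152 and 14497 in Eed-/- and missed the threshold (log2 0.22, SE 0.07, adjusted p = 0.071). It passed after either rescaling, in the fit to the 4 arrays alone, with replicate number as a block, and without any one of the wild-type or Jarid2-/- arrays. Nanog, one of the 7 markers above, was 7059 and 7476 in Ezh2-/- and 9181 and 11231 in Eed-/- (log2 -0.48, SE 0.11, adjusted p = 0.019), and leaving out either Ezh2-/- array or Eed-/- replicate 2 ended that call. Zfp42, whose product Rex1 marks undifferentiated cells, had the smallest adjusted p of the list, with 3714 and 3989 in Ezh2-/- against 17260 and 18660 in Eed-/-, a log2 difference of -2.22 (SE 0.07, adjusted p = 3.3e-07). Wild-type arrays stood with Eed-/- at 18004 and 18757, and the Jarid2-/- arrays with Ezh2-/- at 3726 and 3283. Fbxo15, an early identified Oct4 target, read 3074 and 2889 against 8336 and 8006 (log2 -1.45, SE 0.08, adjusted p = 7.1e-06). Klf2, a factor of the naive state, read 4704 and 4519 against 8374 and 8198 (log2 -0.84, SE 0.07, adjusted p = 6.4e-05). Dppa3, which protects maternal DNA methylation in the early embryo, read 1526 and 1422 against 4971 and 5191 (log2 -1.78, SE 0.19, adjusted p = 0.0004). Lefty1, a secreted Nodal antagonist, was low in Ezh2-/- but uneven, at 1192 and 522 against 6213 and 3333 (log2 -2.5, SE 0.36, adjusted p = 0.0017). Klf5 went the other way with 10343 and 10416 in Ezh2-/- against 6649 and 6641 in Eed-/- (log2 0.64, SE 0.07, adjusted p = 0.00053), as did Nr0b1, an orphan receptor that binds Oct4, with 7745 and 7920 against 5182 and 4196 (log2 0.75, SE 0.1, adjusted p = 0.0012). In all, 5 of 38 measured genes of the list were called higher and 11 lower, with a median of -0.03. These are 13.2% and 28.9%, against 5.87% and 12.2% of all genes. The lower count was 6 without either Ezh2-/- array, 8 without Eed-/- replicate 1 and 7 without Eed-/- replicate 2, and the higher count was 4 without Eed-/- replicate 1 and 3 without any one of the other 3 arrays compared.

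Germline genes also leaned low, with 35.3% of the list called lower and 8.82% higher, against 12.2% and 5.87% of all genes. Of 34 measured, 12 were called lower and 3 higher (median -0.24), with 7 lower without Ezh2-/- replicate 1 and 8 lower without any one of the other 3 arrays compared. The higher count was 0 without either Ezh2-/- array and 1 without either Eed-/- array. Sycp1, part of the synaptonemal complex that pairs chromosomes in meiosis, read 162 and 133 in Ezh2-/- against 541 and 608 in Eed-/- (log2 -1.85, SE 0.11, adjusted p = 1.7e-05). Dazl, an RNA-binding protein of germ cells, read 123 and 146 against 450 and 441, at least 3.01-fold lower (adjusted p = 2.5e-05). Kit, the stem cell factor receptor, read 325 and 369 against 963 and 1207 (log2 -1.6, SE 0.27, adjusted p = 0.004), and the groups did not overlap for any of these genes. Kitl, the ligand of that receptor, was lower too, at 79.2 and 82.6 against 303 and 353 and at least 2.22-fold (adjusted p = 0.00013).

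Imprinted genes outside the Dlk1-Dio3 region were lower in Ezh2-/- in 13 of 42 measured cases and higher in 1, with a median of -0.12. These are 31.0% and 2.38%, against 12.2% and 5.87% of all genes. The lower count was 9 and 8 without Ezh2-/- replicate 1 or 2, 13 without Eed-/- replicate 1 and 8 without Eed-/- replicate 2. Several of the lower genes control growth. Cdkn1c, a maternally expressed inhibitor of cyclin-dependent kinases, read 1159 and 1117 in Ezh2-/- against 3535 and 4055 in Eed-/- (log2 -1.72, SE 0.11, adjusted p = 2.4e-05), with wild-type arrays at 1200 and 1137, beside Ezh2-/-. Plagl1, a paternally expressed zinc finger factor, read 922 and 873 against 4311 and 7729 (log2 -2.66, SE 0.23, adjusted p = 0.00012). Igf2, the paternally expressed fetal growth factor, read 553 and 354 against 2319 and 6709. Its groups did not overlap, but its size hung on the Eed-/- arrays, which differed from each other: the log2 difference was -3.11 (SE 0.41, adjusted p = 0.0011), -2.35 without Eed-/- replicate 2 and -3.87 without Eed-/- replicate 1. Grb10, an adaptor that dampens insulin and growth factor signalling, read 3780 and 3368 against 8249 and 8949 (log2 -1.26, SE 0.12, adjusted p = 0.00018). Slc38a4, an amino acid transporter of placenta and liver, read 965 and 962 against 2764 and 3849 (log2 -1.74, SE 0.15, adjusted p = 0.00012). Impact, a regulator of translation under amino acid stress, read 1892 and 1715 against 3773 and 3593 (log2 -1.03, SE 0.1, adjusted p = 0.00019). Peg3, a paternally expressed zinc finger gene, was the 1 member called higher, at 8569 and 8679 in Ezh2-/- against 2702 and 4138 in Eed-/- (log2 1.36, SE 0.19, adjusted p = 0.0015). The wild-type mean lay nearer to Ezh2-/- for 8 of the 13 lower genes and nearer to Eed-/- for 5.

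Insulin-like growth factor signalling and matricellular genes formed a related list in which 14 of 29 were lower and 1 higher (median -0.33), with 7, 8, 13 and 8 lower without Ezh2-/- replicate 1, Ezh2-/- replicate 2, Eed-/- replicate 1 or Eed-/- replicate 2. Igfbp4, a secreted binding protein of these growth factors, read 171 and 161 in Ezh2-/- against 630 and 1590 in Eed-/- (log2 -2.48, SE 0.32, adjusted p = 0.0011), and -1.83 without Eed-/- replicate 2 or -3.14 without Eed-/- replicate 1. The insulin receptor substrates followed: Irs1 read 89.4 and 84.2 against 268 and 391, at least 2.23-fold lower (adjusted p = 0.0014), and Irs2 read 318 and 309 against 706 and 1008 (log2 -1.38, SE 0.23, adjusted p = 0.0042). Thbs1, a matricellular protein that activates latent TGF-beta, read 96.5 and 81.1 against 403 and 797, at least 4.05-fold lower (adjusted p = 0.0023). As deposited, 48.3% of this list was called lower and 3.45% higher, against 12.2% and 5.87% of all genes. Igf2, given above, is a member of this list and of the imprinted genes, so the counts of these lists overlap.

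Markers of primitive and visceral endoderm, the first layers that leave the inner cell mass, split in both directions. Of 42 measured, 20 were called lower and 6 higher in Ezh2-/- (median -0.27), which is 47.6% and 14.3%, against 12.2% and 5.87% of all genes. The lower count was 13 and 10 without Ezh2-/- replicate 1 or 2, and 15 and 11 without Eed-/- replicate 1 or 2, where the higher count was 3, 3, 5 and 4 in the same order. On the lower side stood type IV collagen of the basement membrane: Col4a1 read 501 and 475 in Ezh2-/- against 1737 and 2548 in Eed-/- (log2 -2.07, SE 0.16, adjusted p = 7.5e-05), and Col4a2 read 258 and 279 against 1106 and 1759 (log2 -2.31, SE 0.18, adjusted p = 7.6e-05). Dab2, an endocytic adaptor of extraembryonic endoderm, read 129 and 132 against 437 and 466, at least 3.05-fold lower (adjusted p = 2.3e-05). Srgn, a proteoglycan core protein, read 138 and 155 against 760 and 553 (log2 -2.04, SE 0.17, adjusted p = 9.8e-05). On the higher side stood Lama1, the laminin chain of the embryonic basement membrane, with 3008 and 3202 in Ezh2-/- against 1230 and 1126 in Eed-/- (log2 1.39, SE 0.1, adjusted p = 3.8e-05). Wild-type arrays read 575 and 625, below both mutants. The apolipoproteins Apoa2, at 1612 and 1639 against 721 and 549 (log2 1.35, SE 0.13, adjusted p = 0.00021), and Apoe, at 14081 and 13322 against 5665 and 4842 (log2 1.38, SE 0.15, adjusted p = 0.00047), were also higher. Basement membrane components thus moved in opposite directions within the list.

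Trophoblast genes gave 7 of 26 lower and 1 higher (median -0.2), with 5 to 8 lower when 1 of the 4 arrays was left out. As deposited, 26.9% of the list was called lower and 3.85% higher, against 12.2% and 5.87% of all genes. The largest difference of the list lay in the reproductive homeobox cluster of the X chromosome. Rhox6 read 65.6 and 71.8 in Ezh2-/- against 1020 and 1718 in Eed-/-, at least 9.25-fold lower (adjusted p = 1.5e-05), Rhox9 read 168 and 152 against 795 and 1148 (log2 -2.47, SE 0.18, adjusted p = 5.4e-05), and Rhox5, counted with the endoderm markers, 1005 and 977 against 2902 and 3418 (log2 -1.65, SE 0.15, adjusted p = 0.00017). All 3 are homeobox genes of placenta and gonads, and related members of the cluster may share array probes. Tfap2c, a transcription factor of trophectoderm and germ cells, read 1382 and 1286 against 4162 and 3963 (log2 -1.6, SE 0.19, adjusted p = 0.00068). The 1 higher gene was Plet1, a surface protein of trophoblast progenitors, with 921 and 858 in Ezh2-/- against 378 and 540 in Eed-/- (log2 0.95, SE 0.15, adjusted p = 0.003).

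Keratin and junction genes of simple epithelium gave 11 of 38 lower and none higher (median -0.18), with 9 and 5 lower without Ezh2-/- replicate 1 or 2, and 12 and 7 lower without Eed-/- replicate 1 or 2. As deposited, 28.9% of the list was called lower, against 12.2% of all genes. After equal array medians 3 were higher. Krt8, the keratin of early epithelium, read 1362 and 872 in Ezh2-/- against 3649 and 9441 in Eed-/-. The Eed-/- arrays lay further from each other than the Ezh2-/- arrays did, and the log2 difference was -2.41 (SE 0.4, adjusted p = 0.0036) with both, -1.73 (adjusted p = 0.015) without replicate 2 and -3.1 without replicate 1. Dsp, which links keratin to desmosomes, read 378 and 259 against 1340 and 2285 (log2 -2.42, SE 0.26, adjusted p = 0.00041), and 2 of its 3 probe sets shared this sign. Krt19 read 253 and 204 against 622 and 1317 (log2 -1.92, SE 0.3, adjusted p = 0.003). Wild-type arrays were brighter than both mutants for Krt19, at 4054 and 2792. Epcam and Cdh1, adhesion molecules that stem cells themselves express, did not pass the threshold, with log2 differences of 0.13 (adjusted p = 0.091) and -0.13 (adjusted p = 0.23); Epcam passed after equal array medians and in the fit to the 4 arrays alone, and Cdh1 without Eed-/- replicate 1.

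The actin cytoskeleton gave the largest share of lower genes of any list. Of 42 measured smooth muscle and actin cytoskeleton genes, 24 were called lower and 1 higher in Ezh2-/-, with a median log2 difference of -0.62 against 0.008 over all genes. These are 57.1% and 2.38%, against 12.2% and 5.87% of all genes. The lower count was 18 and 14 without Ezh2-/- replicate 1 or 2, and 26 and 17 without Eed-/- replicate 1 or 2. Tagln, the actin-binding protein transgelin, read 402 and 312 in Ezh2-/- against 3000 and 5667 in Eed-/- (log2 -3.48, SE 0.32, adjusted p = 0.00016). Myl9, a regulatory light chain of myosin, read 166 and 148 against 827 and 767 (log2 -2.23, SE 0.21, adjusted p = 0.00021). Anxa1, a calcium-dependent membrane-binding protein, read 268 and 187 against 1584 and 2619 (log2 -3.1, SE 0.3, adjusted p = 0.00023). Every Ezh2-/- array was below every Eed-/- array for each of these genes, and the tropomyosins Tpm1 and Tpm4 (log2 -1.86 and -1.51, adjusted p = 0.00073 and 0.0012), nonmuscle myosin Myh9 (log2 -1.14, adjusted p = 0.0007) and calponin Cnn2 (log2 -1.27, adjusted p = 0.0017) were lower with them. Ccn1, a secreted target of the mechanical regulator YAP, read 609 and 456 against 1906 and 3725 (log2 -2.3, SE 0.36, adjusted p = 0.0029). Wild-type means were nearer to Eed-/- for all 24 lower genes. A CArG box, the binding site of serum response factor, was found on either strand of the start region in 4 of the 22 lower genes with a window (18.2%: Cnn2, Myl9, Vcl and Anxa5), where 1.75% of all 9887 windows hold one. Among members that were not called, 1 of 11 with a window held one (9.09%), and as 11 of those 17 have a window, the lower genes cannot be set against them. The Anxa5 call ended without either Ezh2-/- array. The share over all windows covers 79.8% of measured genes, under the minimum of 80% used here, so it is given as description only. The motif reads the same on both strands, so each occurrence was counted once, and a match is a description of the letters only. Myl9 is shown as the member with a match and the largest difference, at chr2:156775214-156775513 on the plus strand, with the CArG box in capitals.
Myl9: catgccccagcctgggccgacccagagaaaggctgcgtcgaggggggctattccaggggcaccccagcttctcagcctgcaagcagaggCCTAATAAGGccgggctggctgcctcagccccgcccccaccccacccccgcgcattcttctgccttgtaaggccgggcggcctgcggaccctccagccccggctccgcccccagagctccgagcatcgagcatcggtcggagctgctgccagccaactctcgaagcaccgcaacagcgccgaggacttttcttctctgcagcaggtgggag

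Fibroblast and feeder cell markers, a list that shares Tagln and Acta2 with the actin genes, gave 15 of 36 lower and none higher (median -0.29), with 9, 9, 15 and 8 lower without Ezh2-/- replicate 1, Ezh2-/- replicate 2, Eed-/- replicate 1 or Eed-/- replicate 2. Their summed signal was 24120 to 24461 in the Ezh2-/- arrays, against 34356 to 47490 in the Eed-/- arrays, and 12 of the 36 lay within the negative controls in both groups. Col1a1, the defining collagen of fibroblasts, was among those 12, at 28.6 and 20.4 in Ezh2-/- and 42.9 and 89.9 in Eed-/-, while wild-type arrays read 432 and 548. The part of fibroblast-like cells in the actin and matrix results was not tested, and in whole-culture RNA fewer cells of a type and less RNA per cell cannot be told apart. Collagens and other matrix genes went the same way, with 21 of 46 lower and 3 higher (median -0.36), and 12, 11, 20 and 13 lower with the 4 arrays left out in the same order. Nid2, the basement membrane linker nidogen, read 1847 and 1987 in Ezh2-/- against 5237 and 5339 in Eed-/- (log2 -1.46, SE 0.09, adjusted p = 1.6e-05). Col5a1, a fibrillar collagen, read 157 and 145 against 372 and 640 (log2 -1.6, SE 0.2, adjusted p = 0.00092), and Timp3, an inhibitor of matrix proteases, 135 and 107 against 380 and 706, at least 3.67-fold lower (adjusted p = 0.0014). Col5a1 and Timp3 are also members of the fibroblast list, so the counts of these lists overlap. As deposited, 41.7% of the fibroblast list and 45.7% of the matrix list were called lower, against 12.2% of all genes. Higher calls made up 6.52% of the matrix list, against 5.87% of all genes.

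Interferon response and antigen presentation genes were lower in Ezh2-/- in 18 of 49 measured cases and higher in 3 (median -0.19). These are 36.7% and 6.12%, against 12.2% and 5.87% of all genes. The lower count stayed between 14 and 15 when any of the 4 arrays was left out, while the higher count was 0 without Ezh2-/- replicate 1 or Eed-/- replicate 2 and 1 without either of the others. The summed signal of the list was 41125 to 41760 in Ezh2-/- and 56851 to 58853 in Eed-/-. Irf1, a transcription factor of the interferon gamma response, read 785 and 796 in Ezh2-/- against 1871 and 1984 in Eed-/- (log2 -1.27, SE 0.09, adjusted p = 4.5e-05). The guanylate-binding proteins, interferon-induced GTPases that act on pathogen compartments, showed the widest gaps: Gbp2 read 67.2 and 51 against 591 and 876, at least 4.96-fold lower (adjusted p = 5.2e-05), and Gbp3 26.7 and 18.8 against 193 and 247, at least 1.49-fold lower (adjusted p = 0.00024). Both genes were at background in Ezh2-/-, and as close paralogs they may share array probes. Irgm1, an interferon-induced GTPase of another family, read 132 and 105 against 698 and 578, at least 4.31-fold lower (adjusted p = 0.00031). Antigen presentation followed: Psmb8, a subunit of the immunoproteasome, read 126 and 111 against 298 and 344, at least 2.17-fold lower (adjusted p = 0.00014), and H2-D1, a class I histocompatibility heavy chain, 332 and 314 against 748 and 974 (log2 -1.36, SE 0.15, adjusted p = 0.00041). Ifitm1, which stem cells express without interferon, was bright throughout at 9904 and 9779 against 18224 and 15561 (log2 -0.77, SE 0.08, adjusted p = 0.00043). The wild-type mean was nearer to Eed-/- for all 18 lower genes. The interferon-stimulated response element, searched on both strands as GAAA, any 2 bases and GAAA again, occurs in 3.84% of all windows. It was present in 9 of the 17 lower genes with a window (52.9%) and in 9 of the 19 members with a window that were not called (47.4%). Since 19 of those 28 members have a window, the comparison between them is void by the minimum of 80% used here, and no difference between lower and other members of the list was shown. Gbp2 and Gbp3 lie on chromosome 3 and are shown with the element in capitals, printed on the gene strand where it reads as its reverse complement. Gbp2, at chr3:142620413-142620712, holds 1 match and Gbp3, at chr3:142559794-142560093, holds 2 that overlap; both windows are on the plus strand.
Gbp2: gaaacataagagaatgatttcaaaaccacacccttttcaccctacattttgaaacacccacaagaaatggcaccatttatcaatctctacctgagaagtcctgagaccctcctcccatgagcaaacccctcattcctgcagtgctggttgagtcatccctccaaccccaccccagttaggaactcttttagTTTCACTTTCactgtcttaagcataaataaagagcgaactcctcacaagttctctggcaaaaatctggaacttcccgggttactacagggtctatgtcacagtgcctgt
Gbp3: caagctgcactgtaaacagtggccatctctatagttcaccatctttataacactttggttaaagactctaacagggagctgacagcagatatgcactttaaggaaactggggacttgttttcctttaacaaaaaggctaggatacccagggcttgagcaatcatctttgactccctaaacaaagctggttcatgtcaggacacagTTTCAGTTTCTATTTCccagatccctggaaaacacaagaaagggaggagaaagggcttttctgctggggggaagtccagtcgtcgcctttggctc

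Lipid metabolism differed in its synthesis and transport genes. Called lower were 48.1% of the synthesis list and 33.3% of the transport list, against 12.2% of all genes. Called higher were 12.1% of the transport list, against 5.87% of all genes. Of 27 measured sterol and fatty acid synthesis genes, 13 were called lower in Ezh2-/- and none higher (median -0.37), but the differences were mostly small: 1 reached 2-fold, and the lower count was 5 without either Ezh2-/- array or without Eed-/- replicate 2, and 12 without Eed-/- replicate 1. Hmgcs1, which makes the precursor of mevalonate, read 4411 and 4557 in Ezh2-/- against 7746 and 9021 in Eed-/- (log2 -0.9, SE 0.08, adjusted p = 0.00018). Fdft1, squalene synthase, read 3011 and 3007 against 4816 and 5713 (log2 -0.8, SE 0.09, adjusted p = 0.00048), and the cholesterol carrier Stard4 512 and 538 against 1151 and 1474 (log2 -1.29, SE 0.15, adjusted p = 0.00062). Scd2, a fatty acid desaturase, read 8126 and 7813 against 10729 and 13528 (log2 -0.6, SE 0.09, adjusted p = 0.0023). Transport genes moved both ways, with 11 of 33 lower and 4 higher (median -0.09), and 4, 3, 5 and 4 lower with 3, 4, 4 and 3 higher without Ezh2-/- replicate 1, Ezh2-/- replicate 2, Eed-/- replicate 1 or Eed-/- replicate 2. Lpl, which releases fatty acids from lipoproteins, read 251 and 200 against 1208 and 1407 (log2 -2.46, SE 0.22, adjusted p = 0.00014), and Fabp5, a fatty acid carrier, 2780 and 2354 against 6056 and 7420 (log2 -1.38, SE 0.13, adjusted p = 0.00018). Abca1, which exports cholesterol to lipoproteins, was higher at 2401 and 2452 against 778 and 977 (log2 1.46, SE 0.19, adjusted p = 0.0011), as were Apoe and Apoa2 above.

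Redox and metal defence was the list with the most genes higher in Ezh2-/-. Of 42 measured, 11 were called higher and 3 lower, with a median of 0.1. These are 26.2% and 7.14%, against 5.87% and 12.2% of all genes. The higher count was 4 and 6 without Ezh2-/- replicate 1 or 2, 10 and 5 without Eed-/- replicate 1 or 2, and 15 after equal array medians. Mt1, a metallothionein that binds zinc and other metals, read 21421 and 20499 in Ezh2-/- against 10156 and 10339 in Eed-/- (log2 1.03, SE 0.04, adjusted p = 5.7e-07), and Mt2 read 25787 and 24995 against 16752 and 18161 (log2 0.54, SE 0.05, adjusted p = 0.00011). Gpx2, a glutathione peroxidase, read 3520 and 3523 against 1320 and 1150 (log2 1.5, SE 0.13, adjusted p = 0.00012), with wild-type arrays lower still at 340 and 290. Nqo1, a quinone reductase and classical target of the stress factor NRF2, read 1972 and 1726 against 840 and 700 (log2 1.25, SE 0.16, adjusted p = 0.001). Outside the list, among the genes named for the size of their difference, were 2 related reductases. Cbr3, a carbonyl reductase, read 6122 and 5162 against 1163 and 1000 (log2 2.37, SE 0.13, adjusted p = 1.1e-05), and Blvrb, biliverdin reductase B, 2451 and 2124 against 762 and 705 (log2 1.62, SE 0.16, adjusted p = 0.00025). Glrx, a glutaredoxin named by the same rule, had a larger difference the other way, at 168 and 164 against 2565 and 2661 (log2 -3.85, SE 0.13, adjusted p = 5.3e-07). Not every detoxifying enzyme followed, since Gstp1, a glutathione transferase, was lower at 4467 and 4576 against 9061 and 7926 (log2 -0.9, SE 0.07, adjusted p = 5.2e-05).

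**Figure D3:**
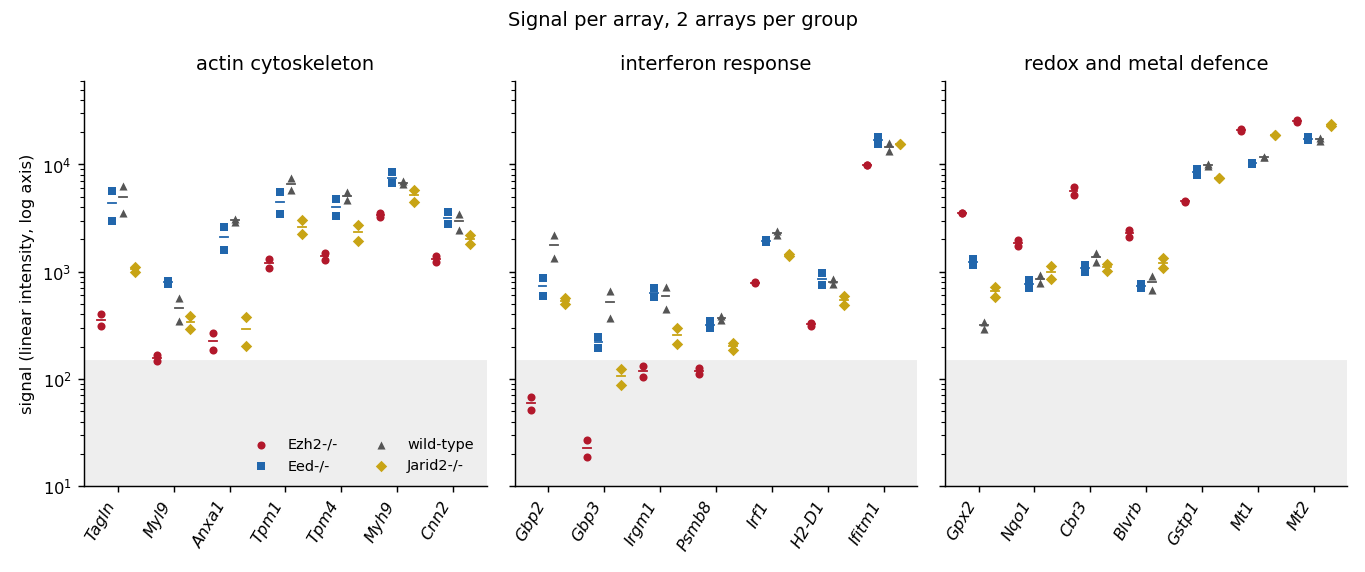
Signal in each array, on a log axis, of named genes of the actin, interferon and redox groups, with 2 arrays per group, a bar at the mean and a grey band up to the highest negative control, 147.91. Ezh2-/- arrays lie below Eed-/- arrays for every actin and interferon gene drawn, and above them for the redox genes drawn except Gstp1. The genes drawn were picked from those named in the text, so they do not stand for whole lists. Cbr3 and Blvrb are outside the redox list, and Glrx, also outside it and lower in Ezh2-/- (log2 -3.85), is not drawn.

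Signalling genes differed in both directions. Of 98 measured ligands, receptors and inhibitors of the Wnt, Fgf, Bmp, Nodal and Hedgehog pathways, 23 were called lower and 9 higher (median -0.09). These are 23.5% and 9.18%, against 12.2% and 5.87% of all genes. The lower count was 15, 5, 18 and 11, and the higher count 8, 7, 8 and 7, without Ezh2-/- replicate 1, Ezh2-/- replicate 2, Eed-/- replicate 1 or Eed-/- replicate 2, so higher calls outnumbered lower ones without Ezh2-/- replicate 2. Spry2 and Etv4, which respond to Fgf signalling, were both called higher. Spry2, a feedback inhibitor of receptor tyrosine kinases, read 7795 and 8157 in Ezh2-/- against 4493 and 4787 in Eed-/- at its brightest probe set (log2 0.78, SE 0.07, adjusted p = 0.00012), while its second probe set had the opposite sign. Etv4, an ETS factor, read 1712 and 1914 against 938 and 816 (log2 1.04, SE 0.11, adjusted p = 0.00045). Gli1, a transcription factor and target of Hedgehog signalling, read 703 and 677 against 343 and 261 (log2 1.16, SE 0.13, adjusted p = 0.00049). Inhbb, an activin subunit, read 2263 and 2548 against 743 and 727 (log2 1.69, SE 0.2, adjusted p = 0.00068), and the Wnt receptor gene Fzd5 989 and 1108 against 544 and 509 (log2 0.97, SE 0.14, adjusted p = 0.0018). For Gli1, Inhbb and Fzd5 the wild-type arrays stood with Ezh2-/-, at 772 and 712 for Gli1. Id4, an inhibitor of helix-loop-helix factors and Bmp target, was lower at 407 and 356 against 1039 and 882 (log2 -1.29, SE 0.19, adjusted p = 0.002).

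Among 62 axon guidance and cell adhesion genes, 16 were called lower and 3 higher (median -0.07), and the lower count was 8, 11, 15 and 7 with the same 4 arrays left out in turn. As deposited, 25.8% of the list was called lower and 4.84% higher, against 12.2% and 5.87% of all genes. Efnb1, a membrane-bound ephrin ligand, read 154 and 149 in Ezh2-/- against 416 and 733 in Eed-/- (log2 -1.76, SE 0.23, adjusted p = 0.0012). The netrin system moved apart: the receptor gene Unc5b read 670 and 657 against 1300 and 1763 (log2 -1.17, SE 0.15, adjusted p = 0.0012), and the ligand gene Ntn1 1755 and 1938 against 781 and 859 (log2 1.16, SE 0.11, adjusted p = 0.00026). Both groups were separate for each gene, and wild-type arrays stood with Ezh2-/- for Ntn1, at 1594 and 1550, and with Eed-/- for Unc5b, at 1613 and 1352.

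Sex chromosomes separated the lines. Of 8 measured genes in the list of Y-linked genes with Xist, 4 were called lower (50.0%, against 12.2% of all genes). All 4 were at background in Ezh2-/- and above it in Eed-/-. The smallest gap was that of Usp9y, a deubiquitinase, at 108 and 111 in Ezh2-/- against 154 and 153 in Eed-/- (at least 1.04-fold lower, adjusted p = 0.017), and its call ended without any one of the 4 arrays. Eif2s3y, a translation initiation factor, read 20.4 and 13.1 in Ezh2-/- against 2268 and 2117 in Eed-/-, at least 14.8-fold lower (adjusted p = 3.2e-08), Uty, a histone demethylase relative, 7.64 and 11.5 against 402 and 429, at least 2.81-fold lower (adjusted p = 2.1e-06), and Uba1y, a ubiquitin-activating enzyme, 34 and 29.9 against 257 and 267, at least 1.77-fold lower (adjusted p = 6.3e-06). Wild-type arrays read 1627 and 1567 for Eif2s3y, on the side of Eed-/-. X-linked genes were shifted as a group: over 186 X-linked genes with a mean signal above 500, the median log2 difference was -0.172, against -0.024 over all 5929 such genes. Of the 186 X-linked genes, 58 were called lower and 5 higher, and of all 5929 such genes, 905 were called lower and 513 higher. No other chromosome with more than 1 such gene had a median more than 0.1 from that of all genes. Klhl13, a ubiquitin ligase adaptor, read 5859 and 5514 in Ezh2-/- against 15438 and 17559 in Eed-/- (log2 -1.53, SE 0.07, adjusted p = 4.3e-06), and Zdhhc9, a palmitoyltransferase, 294 and 264 against 1146 and 1245 (log2 -2.04, SE 0.11, adjusted p = 1.1e-05). Fmr1nb, a cancer-testis gene beside Fmr1, read 233 and 209 against 2995 and 2936 (log2 -3.65, SE 0.11, adjusted p = 1.8e-07). These values move with the line as well as with the genotype, and their part in the autosomal differences was not tested.

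**Figure D4:**
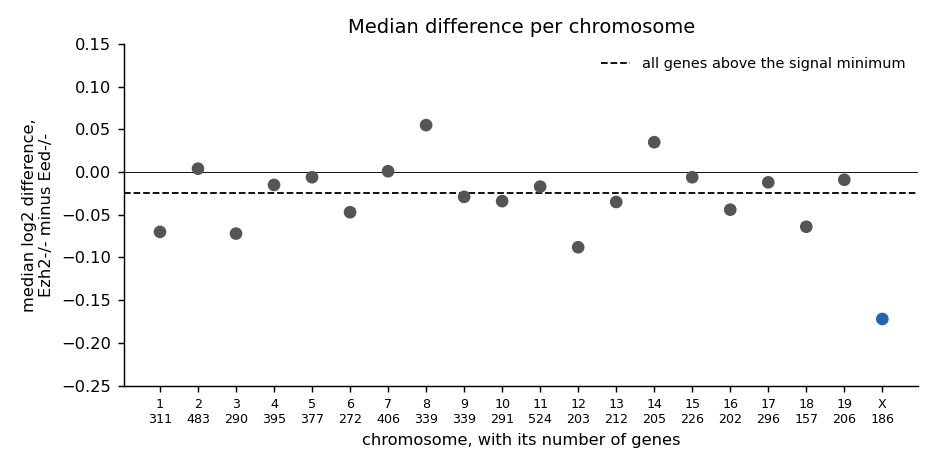
Median log2 difference, Ezh2-/- minus Eed-/-, of genes with a mean signal above 500 on each chromosome, with the number of genes under its name; the Y chromosome, with 1 such gene, is not drawn. The X chromosome has the lowest median, -0.172, and the dashed line marks all 5929 genes at -0.024.

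Some of the largest single differences fell outside any list. Rpl39l, a ribosomal protein paralog of germ and stem cells, read 426 and 458 in Ezh2-/- against 6314 and 6320 in Eed-/- (log2 -3.79, SE 0.11, adjusted p = 1.8e-07), while wild-type arrays read 6004 and 5412. The glutaredoxin gene Glrx, given above, was lower by a similar amount (log2 -3.85). Cd99, a surface glycoprotein, read 48.6 and 41 against 1844 and 1826, at least 12.4-fold lower (adjusted p = 1.2e-07). The Ezh2-/- arrays were thus far below Eed-/- for all 3, and wild-type arrays stood between the mutants for Glrx, at 1979 and 1536, and for Cd99, at 634 and 610. In the other direction, the noncoding transcript Gt(ROSA)26Sor, from the locus widely used for gene insertion, read 999 and 1255 in Ezh2-/- against 23.4 and 10.7 in Eed-/-, at least 7.62-fold higher (adjusted p = 5.7e-07). Wild-type arrays read 915 and 835, so here Eed-/- was the group that stood apart. The predicted gene Gm6958 read 4669 and 4420 against 149 and 129 (log2 4.88, SE 0.14, adjusted p = 1.8e-07). Its probe set has a name ending that marks probes that may bind related transcripts. The same ending applies to Cd99, Erdr1 and Eras here. It also applies to Meg3, Plagl1, Gbp2, H2-D1, Hmgcs1, Fdft1, Ccn1 and Hspb1, among others, elsewhere in the text. Mcam, a cell adhesion molecule, read 1255 and 1548 against 351 and 332 (log2 1.98, SE 0.12, adjusted p = 1.5e-05). Among very bright genes, Erdr1, from the pseudoautosomal region, read 12975 and 13333 against 3348 and 3004 (log2 2.05, SE 0.1, adjusted p = 5e-06), Pcolce, an enhancer of procollagen processing, 4915 and 5529 against 2454 and 2395 (log2 1.1, SE 0.08, adjusted p = 3.9e-05), and Eras, a Ras protein of stem cells, 6354 and 6520 against 3654 and 2655 (log2 1.04, SE 0.13, adjusted p = 0.00074). Trh, the precursor of thyrotropin-releasing hormone, was lower at 1760 and 1659 against 7174 and 3838 (log2 -1.61, SE 0.22, adjusted p = 0.0016).

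Ribosomal protein genes had the smallest share of calls of any list. Among 43 measured, 1 was called higher and none lower (2.33% called, against 18.1% of all genes), with a median of 0; the higher count was 10 after equal array medians. The called member was Rps6, at 3300 and 3346 in Ezh2-/- against 1569 and 1467 in Eed-/- (log2 1.12, SE 0.1, adjusted p = 0.00016). Rpl41, the brightest member not called, read 40975 and 40778 against 42016 and 40620, far above Rps6. Whether signals this bright can show a difference was not tested, and the list held 77 genes before those not measured were left out. Of 52 histone-modifying enzyme genes outside Polycomb, 5 were higher and 7 lower (median 0.02), and these counts fell to 0 higher with 1, 0 and 1 lower without Ezh2-/- replicate 1, Ezh2-/- replicate 2 or Eed-/- replicate 2, and to 2 higher with 3 lower without Eed-/- replicate 1. As deposited, 9.62% of the list was higher and 13.5% lower, near the 5.87% and 12.2% of all genes. After equal array medians 8 were higher and 3 lower. The DNA methylation machinery gave 4 of 21 higher and 1 lower (median 0.13), and 9 higher after equal array medians, with 2, 1, 3 and 2 higher and 1, 1, 2 and 2 lower without Ezh2-/- replicate 1, Ezh2-/- replicate 2, Eed-/- replicate 1 or Eed-/- replicate 2. Higher calls made up 19% of this list as deposited and lower calls 4.76%, against 5.87% and 12.2% of all genes. Its lower gene was Dppa3, given above. Gadd45a, a stress gene linked to demethylation, was higher at 2789 and 2700 against 1673 and 1688 (log2 0.7, SE 0.08, adjusted p = 0.00054). Cell cycle brakes and p53 targets gave 1 of 30 higher and 3 lower (median -0.1). These are 3.33% and 10%, below the 5.87% and 12.2% of all genes. Among the lower genes, Pmaip1, which encodes the cell death activator Noxa, read 2719 and 2564 against 4716 and 5047 (log2 -0.88, SE 0.12, adjusted p = 0.0014).

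**Figure D5:**
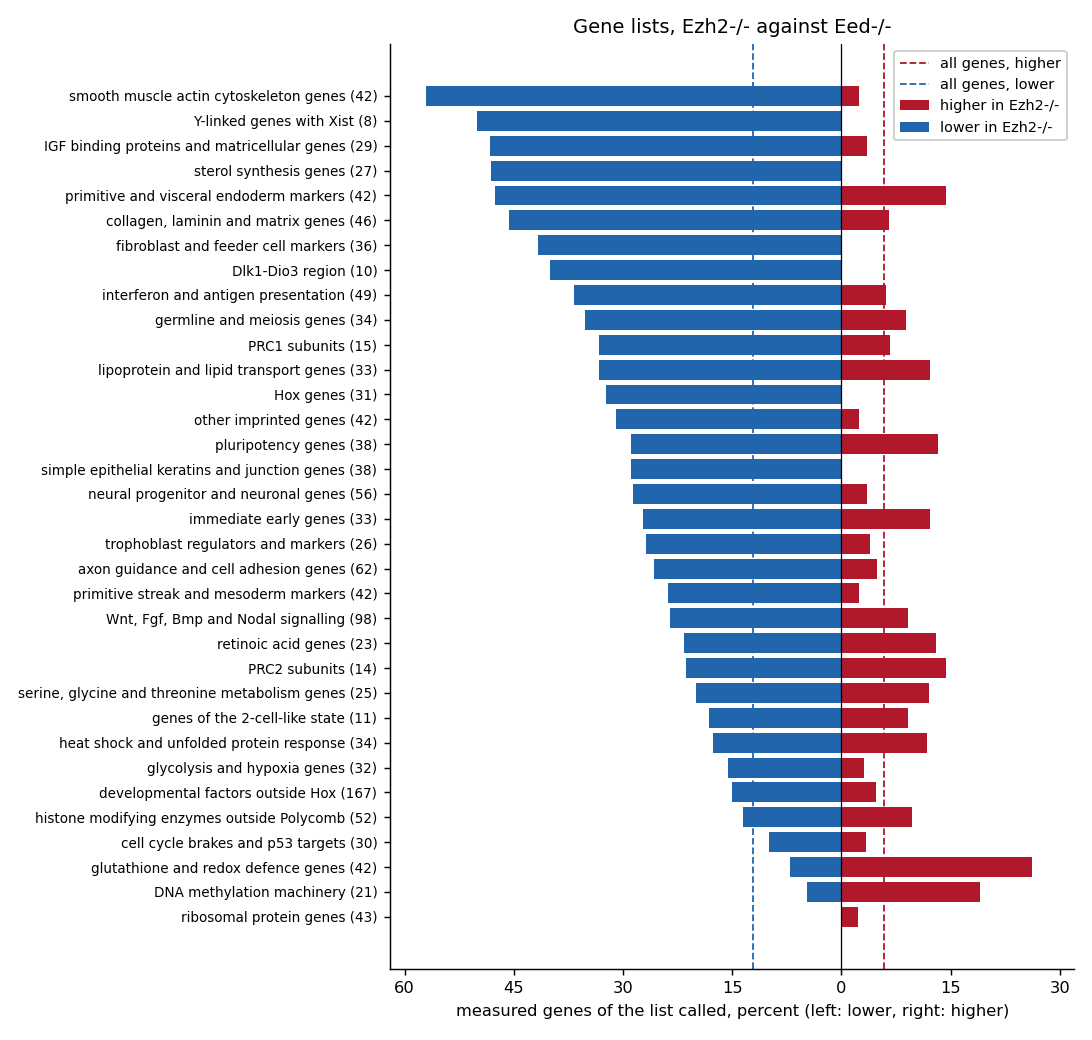
Share of the measured genes of each list called lower (left) and higher (right) in Ezh2-/- relative to Eed-/-, with the number measured in brackets; dashed lines mark the shares over all 12393 genes, 12.2% lower and 5.87% higher. Smooth muscle and actin cytoskeleton genes have the longest bar to the left, and redox defence genes the longest to the right.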

How the data were processed

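Expression was measured on Affymetrix Mouse430A_2 arrays, 2 for each of 4 genotypes, and the 2 Ezh2-/- arrays were compared with the 2 Eed-/- arrays. The deposited values are linear signal intensities, as their range shows; the labels name no normalization by the authors, and none is given in the sources used here. In another deposited file, 12 columns matched no sample and were not used. The 64 control probe sets were left out. Values were raised to at least 1, and log2(value + 16) was fitted in limma 3.58.1 (R 4.3.3) with 1 mean for each genotype and all 8 arrays together, giving 4 residual degrees of freedom and 5.02 from the prior, and an intensity trend. P-values were adjusted by Benjamini-Hochberg over 22626 probe sets and called at 0.05. Each gene was read at its brightest probe set, and gene symbols came from the platform annotation. Other probe sets can differ in sign. The sign of the brightest was shared by 8 of 9 for H2-D1, 3 of 4 for Fdft1, 4 of 6 for Suz12 and 1 of 2 for Acta2. Fold changes of dim genes are understated on this scale. The number of arrays limits the precision. The fit was tested on simulated data.

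Genes were named by rule: the targeted genes and the Dlk1-Dio3 region; the 15 largest called differences in each direction with no overlap and a mean above the median signal; the 8 largest in each direction with a mean above 5000; in each list up to 8 called members of smallest p and the 4 brightest not called; and up to 4 genes of smallest p on a chromosome whose median lay more than 0.1 from that of all genes. Nanog, Esrrb and Col1a1 are cell type markers, and Hoxd1, Hoxb2, Vcl and Anxa5 were chosen after their values were seen. The members and lists were chosen with earlier results of these data known. Promoter windows are those of RefSeq on GRCm38.p6, matched by symbol for 9887 of 12393 genes (79.8%). CG content was not compared between genes called lower and other genes, since 77.8% of the genes called lower have a window, under the minimum of 80%. All measured genes, at 79.8%, also fall under it. The motif shares and the CG median over all windows are therefore given as description only. Alternatives covered scaling, pseudocount, dim probe sets, the intensity trend, the arrays fitted, a replicate block and each array left out.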

Additional observations from a re-analysis of the deposited data

How the results depend on the processing

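As deposited, 3798 probe sets were called, 1285 higher and 2513 lower in Ezh2-/-. Fitting only the 4 Ezh2-/- and Eed-/- arrays gave 5728 calls with 2150 higher, and equal array medians gave 2383 higher. With replicate number as a block, 4824 were called. Deviations of same-numbered arrays correlated with r = 0.00766 between Ezh2-/- and Eed-/-, and with r = 0.0075 to 0.411 over the 6 pairs of groups, highest for wild-type with Jarid2-/- and next for Eed-/- with Jarid2-/- (0.244). Not every pair was over 0.1, and the labels tie the numbers to nothing shared, so the pairing was not used. Leaving out 1 array at a time gave 1373 to 4446 calls, 412 to 1547 higher, 961 to 2900 lower and 594 to 893 called at 2-fold or more. The fewest followed the loss of an array of the compared groups, which leaves 1 array in that group. Most called genes named in the text were picked for a small p or a large difference in these same data. That choice favours keeping the call, so the next counts do not describe called genes in general. Of 139 called genes named in the text, 131 kept their call in every alternative that gave a value, 8 lost it without at least 1 array, 3 under another setting, and none turned sign. Among genes not called, Dppa5a (log2 0.00 as deposited, slightly below 0) turned to 0.009 after quantile normalization, 0.086 after equal medians, and lay between -0.013 and 0.010 with 1 array left out (0.002 without Ezh2-/- replicate 1, 0.010 without Eed-/- replicate 2), and after equal medians Esrrb turned to 0.010 and Sox2 to 0.057. The alternative from the other deposited table was not run, since its columns match no sample. Signals under the highest negative control, 147.91, limit what can be said of silent genes.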

Other observations

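Neuronal and early mesoderm genes were called lower in Ezh2-/- more often than the 12.2% of all genes. Of 56 measured neural progenitor and neuronal genes, 16 were called lower (28.6%) and 2 higher (median log2 difference -0.08), with 9 lower without either Ezh2-/- array, 15 without Eed-/- replicate 1 and 12 without Eed-/- replicate 2. Gng3, a neuronal G protein subunit, read 883 and 716 in Ezh2-/- against 1957 and 1728 in Eed-/- (log2 -1.19, SE 0.12, adjusted p = 0.00025, limma), and Tubb3, the neuronal tubulin, 890 and 794 against 1668 and 1452 (log2 -0.88, SE 0.12, adjusted p = 0.0014). Wild-type arrays stood with Eed-/- for both genes. Among 23 retinoic acid genes, 5 were lower and 3 higher (34.8% called, against 18.1% of all genes), with a median of -0.19, and the lower count was 3 without either Ezh2-/- array or without Eed-/- replicate 2. Aldh1a2, which makes retinoic acid, read 123 and 120 in Ezh2-/- against 266 and 304 in Eed-/-, at least 1.93-fold lower (adjusted p = 0.00023), and Crabp1, which binds it in the cell, 266 and 243 against 917 and 1054 (log2 -1.89, SE 0.27, adjusted p = 0.0017). Of 42 primitive streak and mesoderm markers, 10 were lower (23.8%) and 1 higher (median -0.09), and the lower count was 6, 4, 9 and 5 without Ezh2-/- replicate 1, Ezh2-/- replicate 2, Eed-/- replicate 1 or Eed-/- replicate 2. Of those 42 markers, 14 lay within the negative controls in both groups, as did 13 of the 56 neural genes. Some mesoderm markers called lower were among the 14, so those calls rest on signals that cannot be told from background. Myl7, a myosin light chain of the heart tube, read 118 and 133 in Ezh2-/- against 386 and 402 in Eed-/-, at least 2.66-fold lower (adjusted p = 0.00045).

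Stress and metabolic genes gave small or mixed differences, where 12.2% of all genes were called lower and 5.87% higher. Lower calls made up 27.3% of immediate early, 17.6% of heat shock and unfolded protein, and 20% of serine, glycine and threonine metabolism genes. Higher calls made up 12.1%, 11.8% and 12% of these lists. Glycolysis and hypoxia genes had 15.6% lower and 3.12% higher, and genes of the 2-cell-like state 18.2% and 9.09%. Of 33 immediate early genes, 9 were lower and 4 higher (median -0.11), with 4, 2, 8 and 3 lower, and 2 higher each time, when the same arrays were left out in that order. Nfkbia, the inhibitor of NF-kappaB, read 1891 and 1839 in Ezh2-/- against 3709 and 4029 in Eed-/- (log2 -1.05, SE 0.14, adjusted p = 0.0012), while Ier2, a growth factor responsive gene, read 5080 and 4548 against 3096 and 3102 (log2 0.63, SE 0.08, adjusted p = 0.0012). Heat shock and unfolded protein genes gave 6 of 34 lower and 4 higher (median -0.02), and the lower count was 1, 1, 5 and 3, with 3 higher each time, as the 4 arrays were left out in turn. Higher calls thus outnumbered lower ones without either Ezh2-/- array, as they did after equal array medians, with 9 higher and 4 lower. Hspb1, a small heat shock protein, read 26143 and 26069 in Ezh2-/- against 19504 and 19618 in Eed-/- (log2 0.42, SE 0.06, adjusted p = 0.0027). Of 25 serine, glycine and threonine metabolism genes, 5 were lower and 3 higher (median 0.11), with 1 in each direction without either Ezh2-/- array or without Eed-/- replicate 2, and 7 higher and 5 lower after equal array medians. Atf4, a stress factor that drives amino acid synthesis, read 8588 and 8944 against 6114 and 6392 (log2 0.49, SE 0.07, adjusted p = 0.0014). It was 1 of the 3 called higher, while enzymes of amino acid synthesis were among the 5 called lower. Glycolysis and hypoxia genes gave 5 of 32 lower and 1 higher (median -0.19), with 2 lower without either Ezh2-/- array or without Eed-/- replicate 2. Under the other settings, which keep every Ezh2-/- and Eed-/- array, the number of glycolysis and hypoxia genes called lower ranged from 3 to 16. Ldhb, a lactate dehydrogenase subunit, read 1707 and 1422 against 4463 and 4699 (log2 -1.55, SE 0.23, adjusted p = 0.0021). Of 11 genes of the 2-cell-like state, 1 was higher and 2 lower (median -0.1), with 0 lower without Ezh2-/- replicate 1 or Eed-/- replicate 2 and 1 lower without either of the others.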
